A study of Homo sapiens with 8 samples.

Results

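A set of 30 genes of the p53 network was followed in cells that lack p53. They are the family members TP63 and TP73, the regulators of p53 and genes known as p53 targets. The set was chosen by gene symbol, and 27 of the genes have a probe set named on the array, 1 each, among 21448 probe sets tested. TP63, BTG2 and FDXR, and the p53 gene itself, were not analysed here. The cells were H1299, an established human non-small cell lung carcinoma line known to have lost p53 through a deletion, grown in RPMI1640 with serum. They were treated with gallic acid (GA), a phenolic acid of tea, or with 5-azacytidine (5azaC), a cytidine analog that blocks DNA methyltransferases, for 120 h. The concentration of either compound stands as 10 μM in the text that describes the experiment and as 10 mM in the sample labels. Each treatment had its own untreated controls of the same passage, and each of the 4 groups was measured on 2 Clariom S arrays, which the labels call biological replicates without saying whether they came from separate cultures. P-values therefore measure the spread between these arrays. No cells with p53 were measured, so no level can be set against that in cells with p53.

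p53 is a transcription factor that is stabilised after DNA damage and other stress, and switches on genes that halt the cell cycle, repair DNA or start apoptosis. MDM2 and MDM4 bind p53 and hold it in check, and MDM2 is itself a p53 target, which closes a feedback loop. p63 and p73 are relatives that recognise much the same DNA element, a pair of half-sites. Many p53 targets are also driven by other factors, so they can be expressed in cells without p53.

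Promoter sequences were searched for exact matches to the half-sites that p53 recognises. They are RefSeq windows on GRCh38.p14, from 250 bases before to 50 bases after an annotated transcript start, and 27 of the 30 genes have at least 1. PHLDA3, TP53INP1 and FBXO22 have none. Sites with a mismatch or outside these windows were not sought, so a gene without a match may still have a p53 site. The p53 half-site consensus, which reads the same on both strands, was found in 6 of 39 windows of these genes (15.4%) and in 6.63% of 35116 windows of all genes. A pair of half-sites at most 13 bases apart was found in 10 of all windows (0.0285%), and 1 of these belongs to DDB2, a DNA damage sensor of nucleotide excision repair. This window lies at chr11:47214724-47215023 on the plus strand, the first half-site begins 5 bases after the start, and capitals mark both half-sites.
DDB2: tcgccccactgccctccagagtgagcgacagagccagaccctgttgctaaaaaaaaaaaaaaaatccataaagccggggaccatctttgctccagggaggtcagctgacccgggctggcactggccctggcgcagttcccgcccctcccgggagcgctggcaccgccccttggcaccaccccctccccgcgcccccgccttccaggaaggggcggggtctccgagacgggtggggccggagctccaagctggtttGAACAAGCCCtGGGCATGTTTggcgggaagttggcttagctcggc
Single half-sites were found at AEN (chr15:88621296-88621325, plus strand), PLK2 (chr5:58460199-58460228, minus strand), RPS27L (chr15:63157517-63157546, minus strand), SESN1 (chr6:109009018-109009047, minus strand) and FDXR. They begin 34, 132, 59 and 49 bases before the start in AEN, PLK2, RPS27L and SESN1. They are shown for the 4 genes with a probe set as 30 bases with the half-site in capitals, for comparison with the paired site of DDB2.
AEN: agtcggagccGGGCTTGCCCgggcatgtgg
PLK2: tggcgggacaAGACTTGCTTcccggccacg
RPS27L: ggcctagagcAGACAAGCCCgccccgccgc
SESN1: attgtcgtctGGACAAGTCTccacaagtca
Of the genes above background on every array, MDM4 and POLH alone passed the test described below after 5azaC, and none passed after GA. Neither the MDM4 nor the POLH window holds a half-site. Their windows are shown with CG, the dinucleotide that DNA methyltransferases act on, in capitals, at chr1:204516156-204516455 for MDM4 and chr6:43575935-43576234 for POLH, both on the plus strand. The POLH window holds 43 CG and the MDM4 window 14, against a median of 14 over all windows and 25 over those of the genes described. The arrays measured RNA, and whether these sites were methylated was not measured.
MDM4: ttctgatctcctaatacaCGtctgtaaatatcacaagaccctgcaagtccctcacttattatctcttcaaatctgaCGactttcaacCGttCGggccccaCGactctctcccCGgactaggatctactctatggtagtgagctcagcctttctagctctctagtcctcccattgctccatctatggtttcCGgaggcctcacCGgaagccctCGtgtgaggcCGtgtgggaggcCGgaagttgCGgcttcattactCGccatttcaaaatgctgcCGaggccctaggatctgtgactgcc
POLH: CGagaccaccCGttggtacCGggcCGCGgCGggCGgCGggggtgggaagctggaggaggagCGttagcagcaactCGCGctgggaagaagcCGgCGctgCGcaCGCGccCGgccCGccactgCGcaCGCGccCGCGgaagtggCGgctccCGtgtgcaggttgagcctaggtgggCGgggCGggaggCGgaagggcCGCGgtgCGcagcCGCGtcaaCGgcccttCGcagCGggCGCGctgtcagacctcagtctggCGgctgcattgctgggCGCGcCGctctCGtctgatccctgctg

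Values are log2 signals normalised by the authors, and treated arrays were compared with the controls of the same experiment. A gene was taken as above background on an array where its signal exceeded the 95th percentile of the 612 negative controls, a limit of 6.31 to 7.23 on the 8 arrays. By this limit an array had 39.9% to 46.1% of its probe sets above background. In bulk RNA, fewer expressing cells and less RNA per cell cannot be told apart. Of 5 epithelial markers KRT8 and KRT18 were above background on all arrays, and KRT19, EPCAM and CDH1 on none. The 4 lung markers NKX2-1, NAPSA, SFTPB and SFTPC, the 4 blood cell markers and the 3 endothelial markers were below background throughout. KRT8 and KRT18 rose after 5azaC (adjusted p = 0.0203 and adjusted p = 0.042 from limma), and their part in the changes below was not tested.

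Although p53 is lacking, 16 of the 27 genes were above background on all 8 arrays. These were MDM2, MDM4, PPM1D, TP53BP2, FBXO22, XPC, POLH, CCNG1, CCNG2, PLK2, AEN, TRIAP1, PERP, RPS27L, TP53I3 and TIGAR. Of all probe sets, 37.2% were. The same 16 genes were above it on the 4 untreated arrays, as were 40.6% of all probe sets. TP53INP1, ZMAT3 and GDF15 were above background on 4, 5 and 1 of the arrays, and the other 8 on none, where 51.9% of all probe sets were. These 8 were TP73, DDB2, PLK3, PHLDA3, EDA2R, SPATA18, SUSD6 and SESN1. The limit matters: some negative controls are bright, and above their 99th percentile CCNG1 alone was left on all arrays. A probe set below the limit may still carry RNA of its gene, so no fold is read for genes with both groups under it, and they are named where a count holds them.

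**Figure D1:**
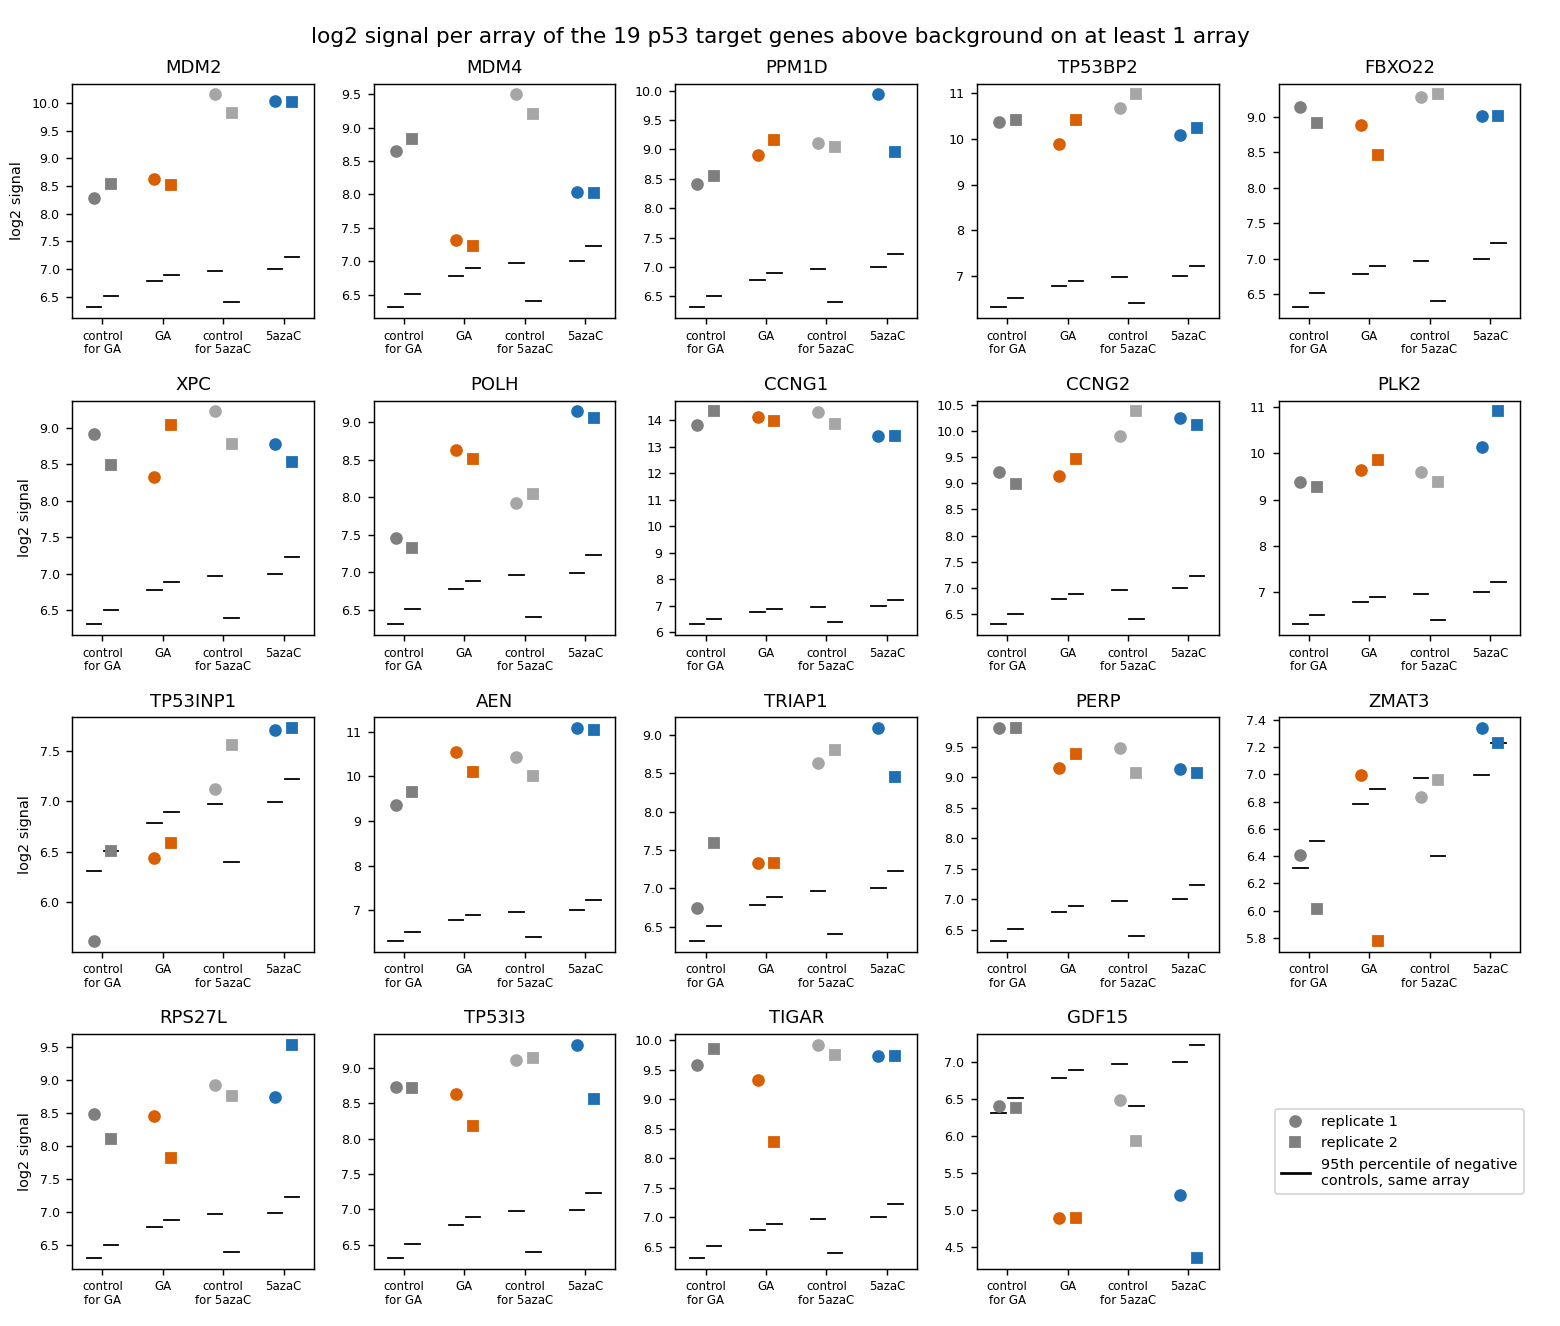
log2 signal (y axis) of the 19 p53 target genes above background on at least 1 array, in the 4 groups (x axis); each point is 1 array, and the black bar beside it is the 95th percentile of the negative controls on that array. MDM4 was lower and POLH higher on both treated arrays than on both control arrays in each experiment. MDM2 differed between the experiments, while its treated and control arrays overlapped within each, and GDF15 lay near or below the bars. The y axis differs between panels.

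MDM4, the p53 inhibitor that binds its transactivation domain, was the gene above background on all arrays with the largest change. Its log2 signal was 7.32 and 7.23 after GA against 8.65 and 8.83 in the controls for GA. After 5azaC it was 8.03 and 8.02 against 9.50 and 9.20. Every treated array lay below both of its controls. MDM4 fell after 5azaC by 1.32 on the log2 scale (standard error 0.21, adjusted p = 0.0413 from limma with the pair as a block), which is 2.50-fold lower. With GA the log2 fold change came to -1.47, 2.77-fold lower (standard error 0.21, adjusted p = 0.0504), and missed the threshold of 0.05. Without the pair block it passed for GA (adjusted p = 0.00789, and 0.00259 to 0.665 over 11 alternatives). In all, MDM4 after GA passed under 7 of the 11. It missed with the paired t-test, with median centring and with either GA pair left out. Leaving out a 5azaC pair changes no GA value and repeats the fit on the GA arrays alone, so those passes are not separate. For 5azaC the adjusted p ran from 0.00356 to 0.549, and the call was lost under 6 of the 11. They were its own 4 arrays, the paired t-test and each single pair of arrays left out. Leaving out a GA pair changes no 5azaC value and repeats the fit on the own 4 arrays. The 5azaC pairs themselves gave -1.47 and -1.18. The effects of the treatments differed by -0.15 (95% interval -0.85 to 0.56, adjusted p = 0.942).

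MDM2, the ubiquitin ligase that degrades p53, did not follow MDM4. Its log2 signal was 8.63 and 8.51 after GA against 8.28 and 8.53, and 10.03 and 10.01 after 5azaC against 10.15 and 9.81. Treated and control arrays overlapped in both experiments. The log2 fold changes were 0.16 after GA (95% interval -0.35 to 0.68, adjusted p = 0.784 from limma) and 0.04 after 5azaC (95% interval -0.47 to 0.56, adjusted p = 0.939). PPM1D, a phosphatase that dampens p53 and damage kinases, had 0.55 and 0.37 (adjusted p = 0.362 and adjusted p = 0.48). It was higher on both GA arrays than on both controls, while the 5azaC arrays overlapped with theirs. TP53BP2, which steers p53 towards apoptosis genes, had -0.24 and -0.66 (adjusted p = 0.677 and adjusted p = 0.157), and FBXO22, a ubiquitin ligase subunit, had -0.36 and -0.29 (adjusted p = 0.457 and adjusted p = 0.483). Of the 5 regulators, MDM4 was therefore the 1 that passed.

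TP73, the measured p53 relative, was below background on every array. Its signals were 4.72 and 4.76 after GA against 4.27 and 5.08, and 4.47 and 4.71 after 5azaC against 3.46 and 4.64. No change is read from them.

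POLH, a DNA polymerase that copies past ultraviolet damage, was higher after both treatments. Its log2 signal was 8.63 and 8.51 after GA against 7.46 and 7.33, and 9.15 and 9.06 after 5azaC against 7.93 and 8.04. Every treated array lay above both of its controls. POLH rose after 5azaC by 1.12 (standard error 0.20, adjusted p = 0.0489 from limma), which is 2.18-fold. With GA the log2 fold change came to 1.18, 2.26-fold (standard error 0.20, adjusted p = 0.0729), and missed the threshold. Without the pair block it passed for GA (adjusted p = 0.0199, and 0.00778 to 0.652 over 11 alternatives). In all, POLH after GA passed under 6 of the 11, again counting the repeated fits on the GA arrays alone. It missed with the paired t-test, with quantile normalization, with median centring and with either GA pair left out. For 5azaC the adjusted p ran from 0.0078 to 0.542, and the call was lost under 8 of the 11. Centring each array on its median was enough to end the call (adjusted p = 0.0518), as was leaving out any single pair of arrays. POLH is one of the genes the study chose on these arrays as higher after both compounds, so its direction is not independent evidence. The effects of the treatments differed by 0.06 (95% interval -0.62 to 0.73, adjusted p = 0.981).

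The other repair genes did not pass. XPC, which recognises distorted DNA in nucleotide excision repair, had log2 fold changes of -0.03 after GA and -0.35 after 5azaC (adjusted p = 0.975 and adjusted p = 0.554 from limma). Its GA pairs went opposite ways, at -0.60 and 0.54. DDB2, the gene with the paired half-sites printed above, was below background on all 8 arrays, with signals of 5.62 to 6.78.

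**Figure D2:**
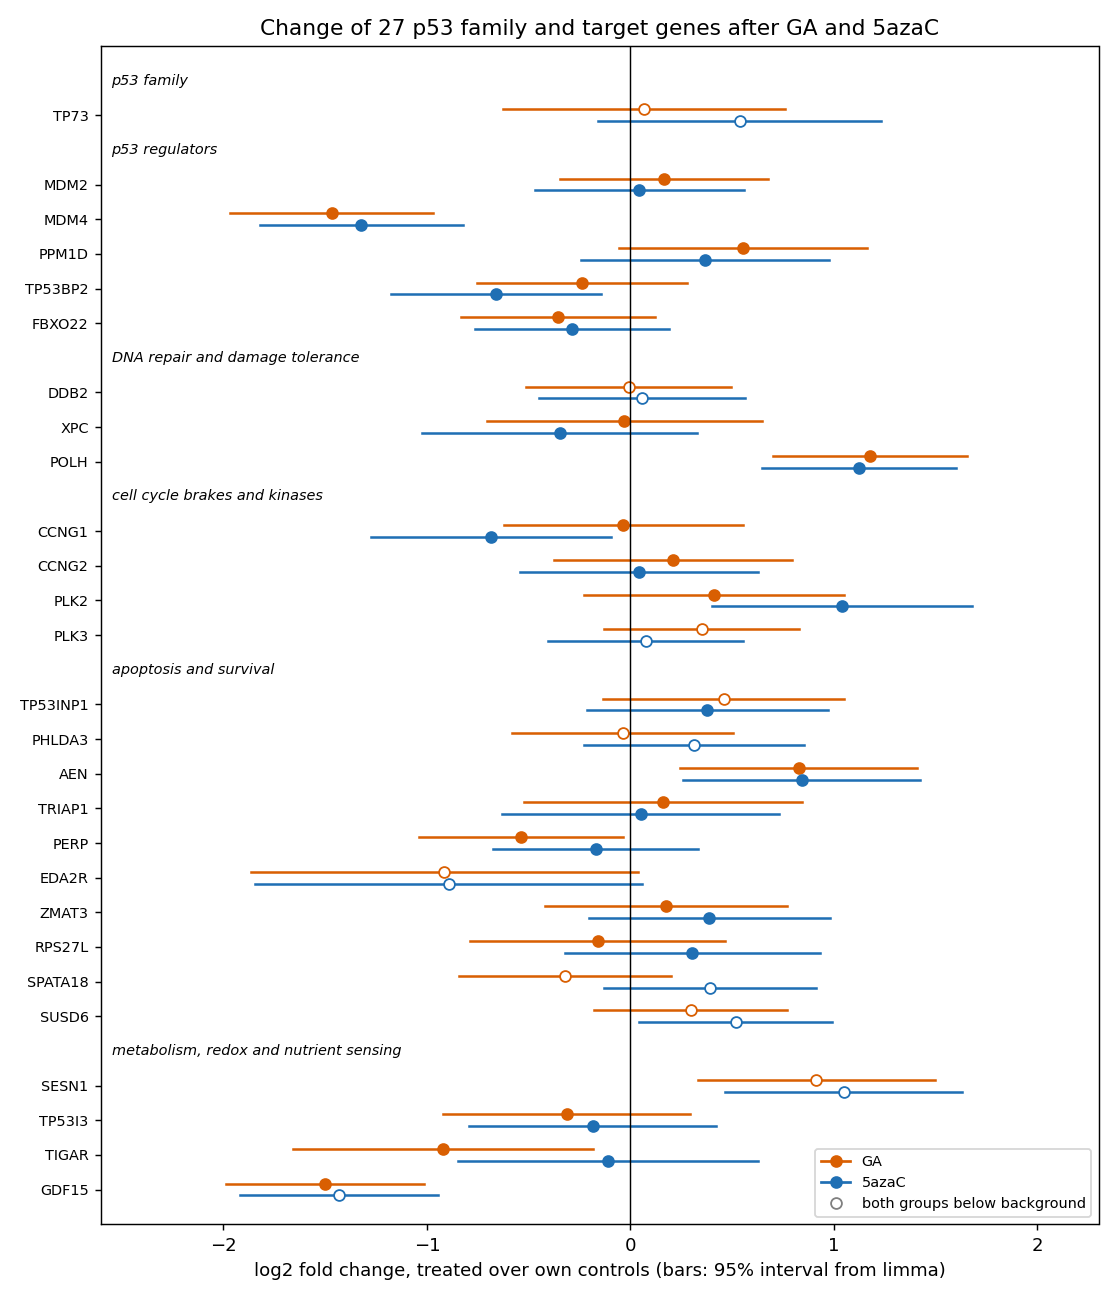
log2 fold change (x axis) of the 27 genes after GA (orange) and after 5azaC (blue), each against its own controls, with the 95% interval from limma as bars and genes grouped by role (y axis); open points mark comparisons where both groups lay below background. MDM4 lies at -1.47 and -1.32 and POLH at 1.18 and 1.12, with PLK2 close to POLH after 5azaC at 1.04, and MDM2 lies at 0.16 and 0.04.

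Among genes that slow the cell cycle, PLK2, a p53-induced kinase, had the largest difference. Its log2 signal was 10.14 and 10.91 after 5azaC against 9.59 and 9.38 in the controls, and 9.63 and 9.85 after GA against 9.38 and 9.28. Both treated groups lay above their controls. PLK2 thus differed by 1.04 with 5azaC (adjusted p = 0.0996 from limma, standard error 0.27) and by 0.41 with GA (adjusted p = 0.532), and neither passed. The 5azaC pairs gave 0.55 and 1.52. CCNG1, a cyclin and long-known p53 target, was at 13.39 and 13.41 after 5azaC against 14.32 and 13.85, a log2 fold change of -0.69 that did not pass (adjusted p = 0.187). After GA it was at -0.04 (adjusted p = 0.965). CCNG2, its relative, had 0.21 and 0.04 (adjusted p = 0.754 and adjusted p = 0.948). PLK3 was below background throughout.

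None of the 10 genes of apoptosis and survival passed after either treatment. AEN, a nuclease that p53 induces in apoptosis, came nearest. Its log2 signal was 10.55 and 10.10 after GA against 9.36 and 9.64, and 11.08 and 11.04 after 5azaC against 10.43 and 10.01. Every treated array lay above both of its controls. The log2 fold changes were 0.83 (95% interval 0.24 to 1.41, adjusted p = 0.182 from limma) and 0.84 (95% interval 0.26 to 1.42, adjusted p = 0.126). PERP, a membrane protein of desmosomes and of apoptosis, was at 9.15 and 9.39 after GA against 9.81 and 9.81, a log2 fold change of -0.54 (adjusted p = 0.282). After 5azaC it was at -0.17 (adjusted p = 0.713). TRIAP1, a small mitochondrial survival factor, had 0.16 and 0.05 (adjusted p = 0.849 and adjusted p = 0.947). RPS27L, a ribosomal protein with a close relative, RPS27, that may share its signal, had -0.16 and 0.30 (adjusted p = 0.832 and adjusted p = 0.58).

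TP53INP1, a stress protein of autophagy and apoptosis, was below background on all arrays of the GA experiment, at 5.61 to 6.59. In the 5azaC experiment it was above, at 7.71 and 7.73 after 5azaC against 7.13 and 7.56, and its log2 fold change there was 0.38 (adjusted p = 0.452 from limma). ZMAT3, an RNA-binding protein and splicing regulator, had 0.18 after GA and 0.39 after 5azaC (adjusted p = 0.804 and adjusted p = 0.442). PHLDA3, which blocks AKT, EDA2R, a death receptor of the TNF family, SPATA18, which controls mitochondrial quality, and SUSD6 lay below background throughout.

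GDF15, a secreted stress cytokine that p53 and the ATF4 pathway both induce, was called after GA and after 5azaC, but at signals that allow no fold. It was at 4.88 and 4.89 after GA against 6.40 and 6.37 in the controls, and at 5.19 and 4.35 after 5azaC against 6.48 and 5.93. Every treated array lay below both of its controls, and a single control array, replicate 1 for GA, was above its background limit. The fit gave log2 fold changes of -1.50 (adjusted p = 0.0422 from limma) and -1.43 (adjusted p = 0.032), both with a standard error of 0.21. Over 11 alternatives the adjusted p ran from 0.00565 to 0.665 after GA, where the call was lost under 3 of them, each GA pair left out and the paired t-test. After 5azaC it ran from 0.00726 to 0.545, and the call was lost under 5 of them. They were the own arrays of the comparison, the paired t-test, either GA pair left out and 5azaC replicate 2 left out. With a GA pair left out, the spread comes from the 5azaC arrays alone, so those settings repeat the fit on the own arrays. Since the treated groups and the controls for 5azaC lay below background, these values are given as measured and no fold is read.

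SESN1, a sestrin that restrains mTORC1 when nutrients are short, was below background on all arrays, at 5.36 and 5.89 after GA against 4.85 and 4.57, and at 6.34 and 6.07 after 5azaC against 5.34 and 4.98. TIGAR, which lowers fructose-2,6-bisphosphate and slows glycolysis, was at 9.32 and 8.27 after GA against 9.58 and 9.86. The log2 fold change of -0.92 did not pass (adjusted p = 0.223 from limma, standard error 0.32), and the pairs gave -0.25 and -1.59. After 5azaC it was at -0.11 (adjusted p = 0.888). TP53I3, a quinone oxidoreductase tied to oxidative stress, had -0.31 and -0.19 (adjusted p = 0.634 and adjusted p = 0.743).

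Over the 27 genes, 1 was called after GA, GDF15, and 3 after 5azaC, MDM4 and GDF15 lower and POLH higher. GDF15 lay below background after either treatment and in the controls for 5azaC. Across all probe sets limma called 0.322% after GA (0.0793% higher and 0.242% lower) and 1.51% after 5azaC (0.518% higher and 0.988% lower). At an unadjusted p under 0.05, 7 of the genes passed after GA and 9 after 5azaC (25.9% and 33.3%), against 15.8% and 20.3% of all probe sets. These include genes with both groups below background, SESN1 after GA and SUSD6, SESN1 and GDF15 after 5azaC. Over all 27 genes the median log2 fold change was -0.01 after GA and 0.06 after 5azaC, and that of all probe sets 0.02 and 0.05. After GA 7 genes were higher and 8 lower on both treated arrays than on both controls, where 25.3% and 21.4% of all probe sets were. After 5azaC these counts were 8 and 7, against 28.1% and 22.2%. Both groups lay below background for PLK3, SUSD6, SESN1, EDA2R and SPATA18 among these after GA, and for PHLDA3, SUSD6, SESN1, EDA2R and GDF15 after 5azaC. Without the pair block limma called 3 of the genes after GA, MDM4, POLH and GDF15, against 1.98% of all probe sets, and after 5azaC these and SESN1, which lay below background, against 4.14%. In the size of the fitted value alone, POLH was at least 2-fold higher after GA (1.39% of all probe sets), and POLH, PLK2 and SESN1, the last below background, were after 5azaC (1.74%). MDM4 and GDF15 were at least 2-fold lower by that measure after either treatment (1.31% of all probe sets with GA and 2.18% with 5azaC). For GDF15, below background in the treated groups, no fold is read. The 14 genes above background on all arrays that passed neither test had log2 fold changes of -0.92 to 0.83 after GA and -0.69 to 1.04 after 5azaC. Their 95% intervals, which are not adjusted for the number of probe sets, reached 0.48 to 0.74 to either side. AEN after both treatments, PERP and TIGAR after GA, and PLK2, TP53BP2 and CCNG1 after 5azaC exceeded theirs and still did not pass after adjustment. Signs were the same after both treatments for 23 of the 27 (85.2%) and for 63.9% of all probe sets. The 23 include TP73, PLK3, EDA2R, SUSD6 and SESN1, which lay below background on all arrays. They also include small changes, such as those of MDM2, CCNG2 and TRIAP1, whose sign turned when a pair was left out. No difference between the treatments passed for any of the 27 or for any of the 21448 probe sets (limma, 0% called). At an unadjusted p under 0.05 the difference passed for 0 of the 27 and for 6.67% of all probe sets.

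The untreated arrays of the 2 experiments were also compared, in a limma fit of the groups with no term for pairs. MDM2 was higher in the controls for 5azaC than in those for GA by 1.58 (standard error 0.21, adjusted p = 0.00284), a 2.98-fold difference, and TRIAP1 by 1.55 (adjusted p = 0.00887). CCNG2 was higher by 1.04 (adjusted p = 0.0151), and TP53INP1, below background in the controls for GA, at least 1.91-fold (adjusted p = 0.0148). DDB2 and SUSD6 were called as well, but lay below background in both groups. These 6 genes stand against 15.2% of all probe sets called higher and 4.07% called lower, and the median of all probe sets was itself shifted by 0.18. With each array centred on its median, MDM2 was at 1.34, TRIAP1 at 1.31, TP53INP1 at 1.05 and CCNG2 at 0.80, and these 4 still passed, against 6.8% of all probe sets higher. PERP then passed as lower, at -0.77 (adjusted p = 0.0391), where 8.7% of all probe sets did. Of the regulators, MDM2 was the 1 that passed here. Experiment, passage and array processing cannot be told apart in this comparison.

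Other known p53 targets were taken from a list of 50, of which 45 have a named probe set. After GA 1 of them rose and 4 fell, and after 5azaC 1 rose and 4 fell, against the percentages of all probe sets given above. TNFRSF10D, a TRAIL decoy receptor, rose by 1.62 after GA and by 1.26 after 5azaC (adjusted p = 0.0344 and adjusted p = 0.0418 from limma). In the controls for GA it was at 6.41 and 6.66, just above the background limits of 6.31 and 6.51 on these arrays. SESN2, the sestrin that ATF4 also induces, fell by 3.95 and by 3.62 (adjusted p = 0.00121 and adjusted p = 0.00141). Its log2 signal was 7.73 and 8.04 after GA against 11.78 and 11.89, and 7.52 and 7.84 after 5azaC against 11.22 and 11.38. DDIT4, an mTORC1 inhibitor that stress induces, fell by 3.59 and by 3.76 (adjusted p = 0.00161 and adjusted p = 0.00141). ATF3, a stress transcription factor, was below background with GA, lower by at least 1.62-fold (adjusted p = 0.0294), and fell by 1.42 after 5azaC (adjusted p = 0.0332). SESN2, DDIT4, ATF3 and GDF15 are known targets of the ATF4 pathway as well as of p53. GADD45A, a damage and stress sensor, fell by 1.63 after GA (adjusted p = 0.0356), and TNFRSF10B, a TRAIL death receptor, fell by 1.55 after 5azaC (adjusted p = 0.0329). In the other experiment GADD45A had -1.10 after 5azaC (adjusted p = 0.0572) and TNFRSF10B -0.92 after GA (adjusted p = 0.125), and neither difference between the treatments passed (adjusted p = 0.786 and adjusted p = 0.774). CDKN1A, the cell cycle inhibitor p21 and the best known p53 target, was at 8.06 and 7.75 after GA against 5.80 and 6.38, which are below background, and at 8.04 and 8.00 after 5azaC against 7.01 and 6.51. Every treated array lay above both of its controls. The difference was at least 2.82-fold with GA (adjusted p = 0.0538) and 2.39-fold with 5azaC (adjusted p = 0.0672), and passed in neither fit with the pair block but in both without it (adjusted p = 0.00954 and adjusted p = 0.0285). CDKN1A and TNFRSF10D, like POLH, were chosen by the study on these arrays as higher after both compounds. For CDKN1A the study also reports qPCR of its mRNA and methylation-specific PCR of its promoter, which are not part of these arrays. The median of the 45 was 0.04 after GA and -0.03 after 5azaC.

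**Figure D3:**
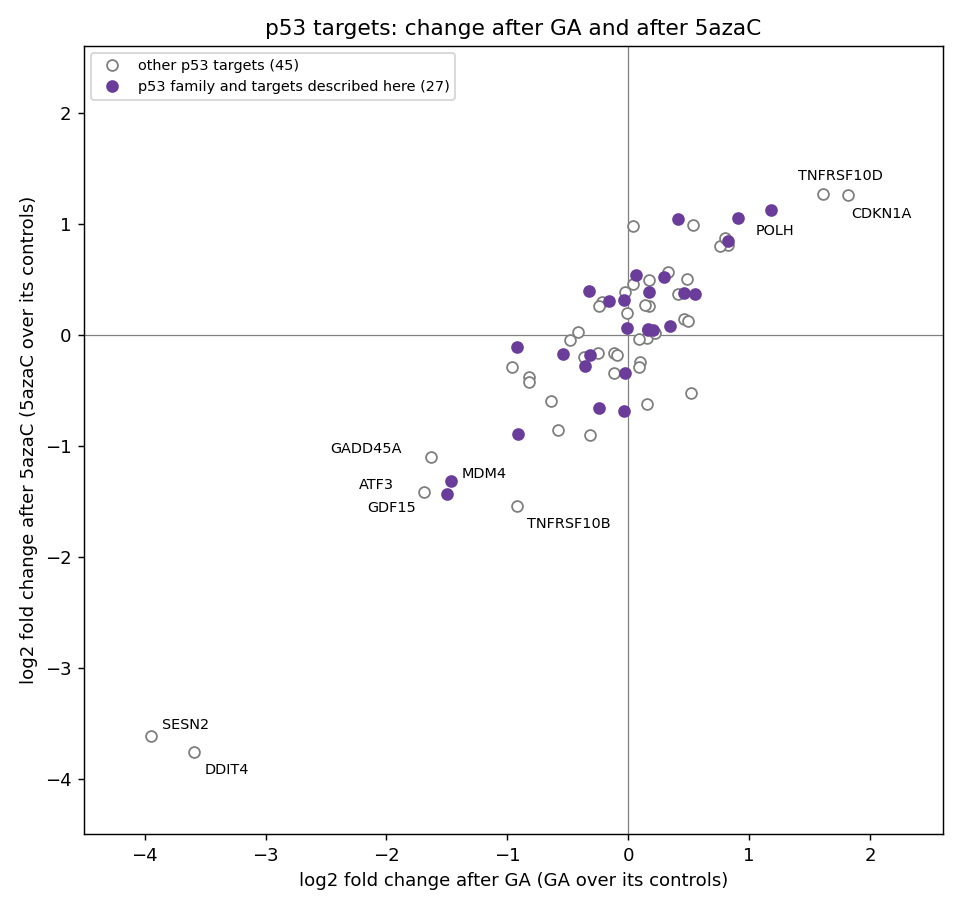
log2 fold change after GA (x axis) against that after 5azaC (y axis), each over its own controls, for the 27 genes described (filled) and 45 other p53 targets (open); each point is 1 gene, and named points passed limma's test in at least 1 comparison, except CDKN1A. SESN2 at -3.95 and -3.62 and DDIT4 at -3.59 and -3.76 lie far from all others, and most points lie near zero on both axes.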

How the data were processed

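H1299 RNA was hybridised to 8 Clariom S arrays, 2 in each of the 4 groups, with groups and replicate numbers read from the sample titles. The log2 signals were deposited by the authors after Signal Space Transformation and RMA in Expression Console 1.4. The 2903 control entries among 24351 were removed, which left 21448 probe sets, tested with no filter and no other scaling. Symbols came from the platform's annotation, which leaves 3739 probe sets unnamed. The test was limma 3.58.1 (lmFit and eBayes, R 4.3.3), fitted once over all arrays. It had a term for each treated and control pair, as the methods state a paired test, and 2 residual degrees of freedom. P-values were adjusted by Benjamini-Hochberg over all probe sets at a threshold of 0.05. The code was tested on simulated data. The number of arrays limits the precision.

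The genes and lists were chosen with earlier results of these data known. Among the 27 genes, values per array are given for those called, those above background with a log2 fold change of at least 1 in size, TP73 and MDM2. Of the other p53 targets, those called and CDKN1A are named. Values per array of CCNG1, AEN, PERP, TP53INP1, SESN1, TIGAR, SESN2 and CDKN1A were added after their values were seen. Promoters were RefSeq windows searched for exact matches. As alternatives, the pair block was dropped, each comparison was fitted on its own 4 arrays, the methods' paired t-test was run with Benjamini-Hochberg adjustment and, added after seeing the data, at the methods' own threshold, arrays were quantile-normalised or centred on their medians, the dimmest 33% of probe sets were removed, eBayes was run with trend and robust settings, and each pair was left out.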

Additional observations from a re-analysis of the deposited data

How the results depend on the processing

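With 2 arrays per group and 2 residual degrees of freedom, the number of calls depends on how the spread is estimated. For GA, 69 probe sets and 1 of the 27 genes were called. This became 425 and 3 without the pair block, 620 and 3 with the 4 arrays of the comparison alone, 9 and 0 with a paired t-test after Benjamini-Hochberg adjustment (1 degree of freedom), 408 and 3 without the dimmest 33%, and 1210 and 4 with trend and robust settings. With quantile normalization 2 genes were called. For 5azaC, 323 probe sets and 3 genes became 889 probe sets without the pair block, 22 and 0 with its own 4 arrays, 3 and 0 with the adjusted paired t-test, 937 probe sets without the dimmest 33%, and 1838 and 8 with trend and robust settings. The methods used the paired t-test at an unadjusted p under 0.05 and a fold of at least 2. At that threshold, run after seeing the data, it gave 160 probe sets (0.746%) and 2 genes for GA, POLH and GDF15, and 277 probe sets (1.29%) and 1 gene for 5azaC, SESN1, which lay below background. With a pair left out, the counts for GA ran from 0 to 620 probe sets and from 0 to 3 genes, and for 5azaC from 22 to 257 probe sets and from 0 to 1 gene. A treatment that loses a pair keeps 1 array per group, whose spread is taken from the other treatment. The cause of the other shifts was not tested.

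Same-numbered treated and control arrays did not deviate together (r = -0.023 across probe sets in the GA experiment, r = 0.0289 in the 5azaC experiment). By this measure the arrays show no pairing, and the pair block rests only on the paired test that the methods state. The median log2 fold change of the genes after GA was -0.0095, and -0.026 with quantile normalization, -0.027 with centring and 0.067 without the dimmest 33%, where some of the genes are lost. With a pair left out it ran from -0.031 to -0.0095 for GA and from 0.024 to 0.21 for 5azaC. No gene passed for the difference between treatments under any of the alternatives tried. Between the untreated groups 6 genes were called, and 3 with quantile normalization. Above the 99th percentile of the negative controls 1 gene was left of 16.

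Of 54 log2 fold changes (27 genes, 2 treatments), none that was called turned its sign, and 18 that were not called turned it under 1 setting each. PLK3 after 5azaC was at -0.0036 with quantile normalization, and the others turned when a pair was left out. After GA the range was -0.38 to 0.31 for CCNG1, -0.065 to 0.48 for CCNG2, -0.060 to 0.041 for DDB2, -0.018 to 0.35 for MDM2, -0.34 to 0.27 for PHLDA3, -0.32 to 0.45 for TP73, -0.26 to 0.58 for TRIAP1, -0.60 to 0.54 for XPC, -0.24 to 0.59 for ZMAT3. After 5azaC the range was -0.27 to 0.35 for CCNG2, -0.16 to 0.27 for DDB2, -0.12 to 0.21 for MDM2, -0.34 to 0.0014 for PERP, -0.088 to 0.82 for PPM1D, -0.17 to 0.78 for RPS27L, -0.58 to 0.21 for TP53I3, -0.36 to 0.45 for TRIAP1. A second probe set could not be tried, since each gene has 1.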
